A study of Mus musculus with 12 samples.

Results

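The Hox genes are the genes of the 4 clusters Hoxa, Hoxb, Hoxc and Hoxd, and each one is numbered by its paralogue group, its place along the cluster. Members were taken by name and type: every protein-coding gene whose symbol is Hoxa, Hoxb, Hoxc or Hoxd followed by a number only. This gave 39 of the 35275 genes of the count table, 11 in cluster A, 10 in cluster B and 9 each in clusters C and D. By paralogue group, 12 belonged to groups 1 to 4, 11 to groups 5 to 8 and 16 to groups 9 to 13.

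They were read in total RNA of the ileum, the last stretch of the small intestine, of 12 C57BL/6 mouse pups at postnatal day 14. The groups were stressed males, control males, stressed females and control females, each with 3 libraries. Stressed refers to the mother: 3 dams were restrained in a ventilated tube for 2 h each day of gestational days 7 to 19, and the other 3 stayed undisturbed in their cages. Each dam gave 1 male and 1 female pup, and a library is named here by its group and its dam number, so that control male 3 and control female 3 are littermates.

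Hox genes encode homeodomain transcription factors that give cells a position along the head-to-tail axis. They lie in the order in which they are used, so that low-numbered genes act toward the head and high-numbered genes toward the tail, and genes of the same number in different clusters are descended from a common ancestor. In the gut tube they are active mainly in the mesenchyme and smooth muscle, the high-numbered ones mark the hindgut, and the ParaHox factors CDX1 and CDX2 of the epithelium act upstream of them in the embryo. Whole ileum was sequenced, so fewer cells of a type and less RNA per cell cannot be told apart.

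In the coordinates of the files (GRCm38), cluster A ran over chromosome 6 from 52155590 to 52260880, cluster B over chromosome 11 from 96194316 to 96368256, cluster C over chromosome 15 from 102921103 to 103036852 and cluster D over chromosome 2 from 74668310 to 74765142. Exons of 16 members share bases with another annotated gene, and those of 10 share bases with a gene on the opposite strand. The sources used here do not say whether reads were counted by strand. Reads of Hoxb3 and its antisense transcript Hoxb3os may therefore have been split or shared. Among others, this also holds for Hoxb2 with Hoxb3os (27.3% of the exon bases of Hoxb2) and Hoxa7 with Hoxaas3 (20.4%). Hoxd3 and Hoxd4 overlap on the same strand, as do Hoxc5 and Hoxc10, so their reads may be shared even when counted by strand. The values of all these genes are uncertain to that extent.

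The 250 bases before the RefSeq start (GRCm38.p6) are shown for 4 members that recur in the results and whose RefSeq start falls on the start of the gene in the files. Hoxb8, Hoxd8 and Hoxb4 were low in both pups of control dam 3, and Hoxa5 was not. Capitals mark TTTATG, on either strand, the letters of a site that CDX proteins favour. They are read 5′ to 3′ on the strand of the gene.
Hoxb8, chr11:96281655-96281904, + strand: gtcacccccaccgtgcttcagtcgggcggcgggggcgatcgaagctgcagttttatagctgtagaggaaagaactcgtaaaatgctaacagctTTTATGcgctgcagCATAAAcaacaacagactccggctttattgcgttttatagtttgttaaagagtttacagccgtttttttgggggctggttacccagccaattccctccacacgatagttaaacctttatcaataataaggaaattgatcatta
Hoxd8, chr2:74704365-74704614, + strand: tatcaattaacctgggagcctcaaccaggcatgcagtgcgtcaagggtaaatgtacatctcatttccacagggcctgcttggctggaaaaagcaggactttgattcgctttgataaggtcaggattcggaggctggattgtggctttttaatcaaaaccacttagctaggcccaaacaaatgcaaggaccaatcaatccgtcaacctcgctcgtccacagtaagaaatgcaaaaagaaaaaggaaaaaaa
Hoxb4, chr11:96318017-96318266, + strand: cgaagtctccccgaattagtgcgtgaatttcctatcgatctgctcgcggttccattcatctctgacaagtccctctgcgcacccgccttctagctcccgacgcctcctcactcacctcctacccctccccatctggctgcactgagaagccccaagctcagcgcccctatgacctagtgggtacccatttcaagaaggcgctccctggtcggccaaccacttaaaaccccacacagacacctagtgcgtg
Hoxa5, chr6:52204588-52204837, - strand: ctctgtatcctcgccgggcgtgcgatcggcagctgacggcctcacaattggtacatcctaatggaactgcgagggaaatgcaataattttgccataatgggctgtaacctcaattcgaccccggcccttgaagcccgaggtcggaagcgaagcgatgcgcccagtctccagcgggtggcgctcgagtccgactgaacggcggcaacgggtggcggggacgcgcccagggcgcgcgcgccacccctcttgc
The Hoxb8 window held the letters 2 times, once on each strand, and the other windows shown held none. RefSeq gave 24 such windows for 22 members, of which 5 (20.8%) held the letters, those of Hoxa7, Hoxb8, Hoxd3, Hoxd4 and Hoxd11, against 10.8% of all 32851 windows. The Hox windows had a median of 12.5 CpG and 58.6% GC, against 6 CpG and 52.4% GC over all windows. A match of letters is a description and not a binding site.

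The 12 libraries held between 16423523 and 22975526 counted reads. Both pups of control dam 3 stood apart by their transcripts, in that genes of the upper small intestine were high. In CPM, counts scaled to a common library size by TMM, the fatty acid carrier Fabp1 stood at 1404 in control male 3 and at 168 in control female 3, while no other library passed 0.638. Gata4, whose protein maintains jejunal identity in mice, stood at 134.6 and 51.0 in the same pups, while no other library passed 4.06. Stressed male 1, stressed male 3 and control male 1 stood apart by a large share of reads on the noncoding RNA Yam1, 1.39%, 4.13% and 1.00%, against 0.17 to 0.50% in the other 9 libraries. Markers of the distal small intestine were read in all 12 libraries, Cubn at 416 CPM or more and Amn at 153 CPM or more, and Fabp6 was near 0 in control male 3 alone, at 0.716 CPM, with 61.0 CPM in control female 3 and 29.9 to 608 CPM in the other 10. The Hox results that rest on these libraries are given with and without them.

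The ileum expressed a middle stretch of the Hox code. Levels between genes are compared as FPKM, which divides by gene length. A mean of at least 1 FPKM was reached by 16 of the 39 members, by 4 of 12 in groups 1 to 4, by 10 of 11 in groups 5 to 8 and by 2 of 16 in groups 9 to 13. Groups 5 to 8 held 79.7% of the summed FPKM of all members, groups 1 to 4 held 12% and groups 9 to 13 held 8.32%. The sum over paralogues was highest for group 8 with 37.1 FPKM, and it was 8.01 FPKM for group 9 and 0.345 FPKM for group 10. Clusters C and B carried most of the signal, with 43.1 and 37.3 FPKM in sum, against 15.7 FPKM for cluster A and 4.44 FPKM for cluster D.

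**Figure D1:**
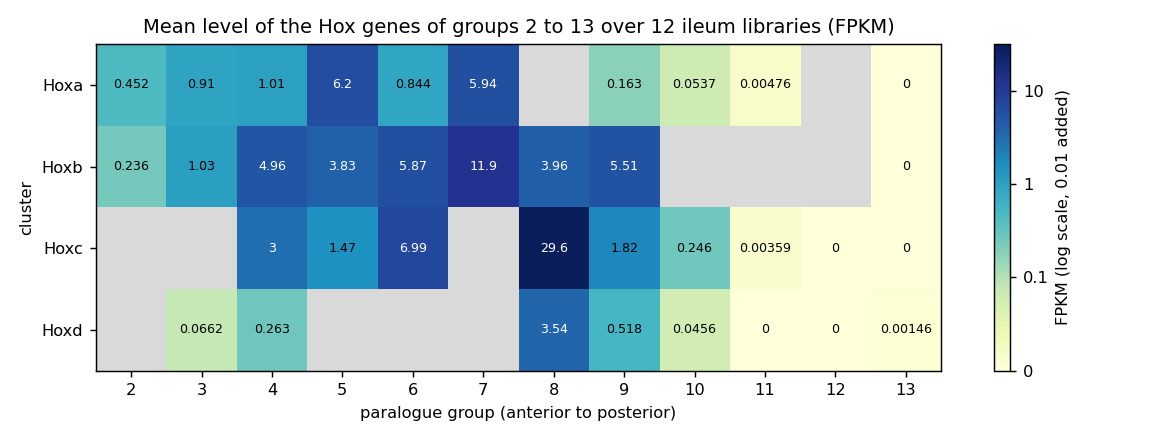
Mean FPKM over the 12 libraries for the Hox genes of paralogue groups 2 to 13, with clusters in rows and paralogue groups in columns, on a logarithmic colour scale with a small constant added; grey fields are places with no member. The highest fields are Hoxc8 at 29.6 FPKM and Hoxb7 at 11.9 FPKM, and groups 11 to 13 are at or near 0.

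Hoxc8 was the most abundant member. In the mouse embryo Hoxc8 patterns the lower thorax. It averaged 39.7 ± 15.8 FPKM in stressed males, 29.2 ± 29.5 FPKM in control males, 25.5 ± 0.633 FPKM in stressed females and 24 ± 7.70 FPKM in control females (SD, n = 3 each). Alone it held between 10.8% of the Hox reads, in control male 3, and 47.2%, in stressed male 3. Its cluster neighbour Hoxc6, another thoracic-level gene, came next in cluster C with a mean of 6.99 FPKM and a range of 3.68 to 9.35 FPKM.

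In cluster B, Hoxb7 averaged 10.2 ± 2.79 FPKM in stressed males, 10.7 ± 6.86 FPKM in control males, 15.7 ± 1.16 FPKM in stressed females and 11 ± 6.50 FPKM in control females. Next in cluster B were Hoxb6 at a mean of 5.87 FPKM and Hoxb9 at 5.51 FPKM. The spread of Hoxb9 was wide, from 0.485 to 8.39 FPKM, a 17.3-fold range. Hoxb4 followed at 4.96, Hoxb8 at 3.96, Hoxb5 at 3.83 and Hoxb3 at 1.03 FPKM, so that cluster B was read from group 3 to group 9.

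In cluster A the leading genes were Hoxa5, which in mice is needed for lung and gut development, at a mean of 6.20 FPKM (range 3.84 to 9.02) and Hoxa7 at 5.94 FPKM (range 4.19 to 11). The neighbouring Hoxa6 averaged 0.844 FPKM and the posterior Hoxa9 0.163 FPKM, so that in cluster A the level dropped after group 7. In cluster B it dropped after group 9. In cluster C it dropped after group 8, from 29.6 FPKM for Hoxc8 to 1.82 FPKM for Hoxc9 and 0.246 FPKM for Hoxc10. In cluster D only Hoxd8 was above the minimum, at 3.54 FPKM. It varied little within the stressed groups, at 3.59 ± 0.0169 FPKM in stressed males and 3.70 ± 0.0528 FPKM in stressed females, against 3.21 ± 1.08 FPKM in control males and 3.67 ± 1.11 FPKM in control females. Hoxd9 was next at 0.518 FPKM.

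In single libraries Hoxa5 was at 9.87, 12.3 and 12.1 CPM in the stressed males, 15.1, 7.07 and 11.2 CPM in control males, 16.1, 10.3 and 11.1 CPM in stressed females and 12.9, 11.4 and 9.93 CPM in control females, in order of dam number here and below. Hoxc6 was at 7.75, 14.4 and 7.37 CPM in the stressed males, 12.5, 10.5 and 6.64 CPM in control males, 13.8, 11 and 11.7 CPM in stressed females and 12.2, 12 and 11.5 CPM in control females. Hoxd8 was at 9.51, 9.23 and 9.91 CPM in the stressed males, 10.9, 9.05 and 6.05 CPM in control males, 9.12, 9.47 and 9.64 CPM in stressed females and 12.1, 9.16 and 7.26 CPM in control females. For Hoxa5 no dam stood out, for Hoxc6 the 3 lowest libraries were all males, and for Hoxd8 both pups of control dam 3 were lowest and both of control dam 1 highest. The least variable member above 1 FPKM was Hoxc5, with 1.28 to 1.96 FPKM.

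The tail end of the code was silent or nearly so. No count in any library fell on Hoxa13, Hoxb13, Hoxc12, Hoxc13, Hoxd11 or Hoxd12, 6 members of groups 11 to 13. A count of 0 allows up to 3 counts, which in these libraries is at most 0.195 CPM (counting error only). Hoxb13 marks the distal colon in mice, and Hoxa13 and Hoxd13 are needed for the hindgut. The head end was low as well: Hoxb1 had 2 counts and Hoxd1 had 3 counts over all libraries together.

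Traces of the genes of groups 10 to 13 were highest in control female 1, a library singled out after the values were seen. It held all 3 counts of Hoxa11, both counts of Hoxc11, the single count of Hoxd13 and both counts of Hoxb1. Hoxd10 had 13 counts there, against 0 to 2 in each other library, and Hoxa10 had 14, against 0 to 8. Hoxc10 had 26 counts there, against 0 to 14, and Hoxd9 had 58, against 9 to 35. Each of these genes was thus highest in control female 1, which also held the most counted reads, 22975526. Over the 5 tested members of groups 9 to 13 its median lay 1.01 above the members' medians on the log2 scale. By member it lay 1.16 above for Hoxd9, 1.04 for Hoxc10 and 1.01 for Hoxa9. For the more abundant Hoxb9 and Hoxc9 it lay only 0.35 and 0.007 above. Markers of colon gave no such pattern in this library: their list, of which 6 of 10 genes were tested, stood at -0.06 on the same scale.

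**Figure D2:**
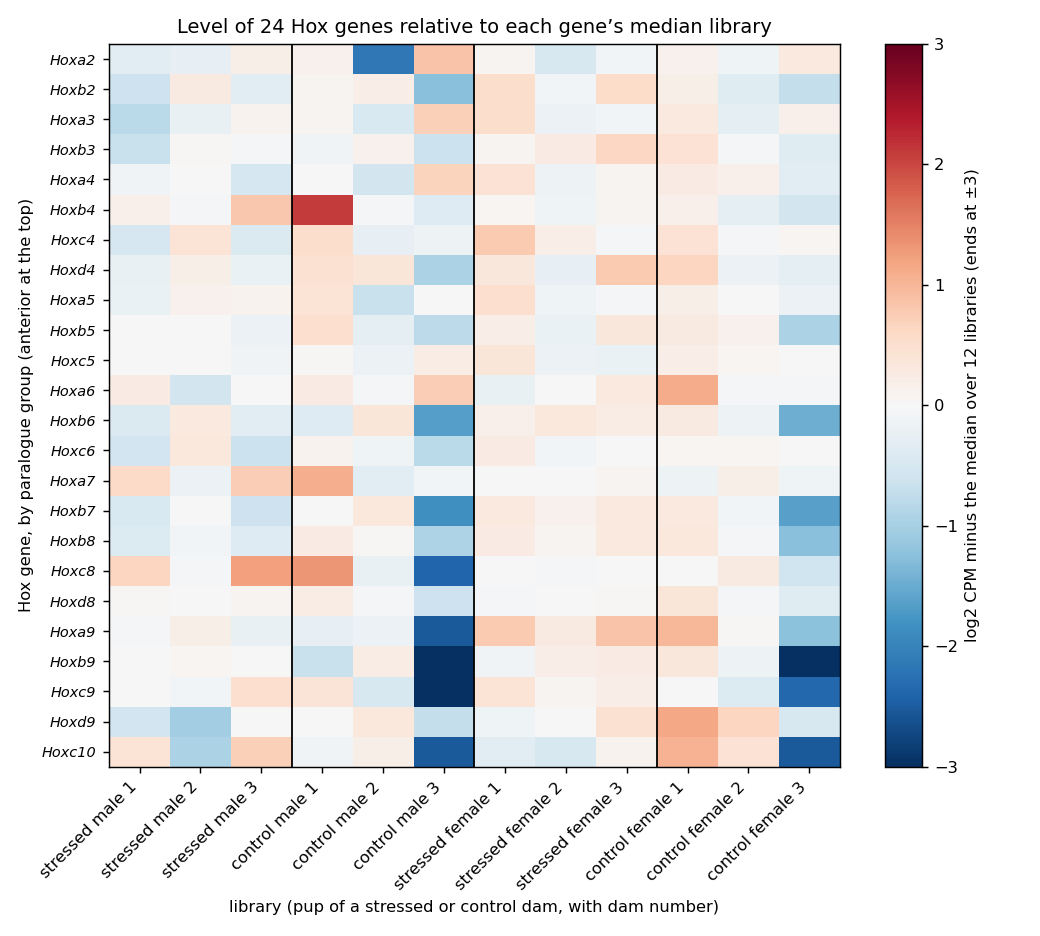
Log2 CPM of the 24 tested Hox genes minus each gene's median over the 12 libraries, with genes ordered by paralogue group from the top and libraries by group. The darkest blue fields are Hoxb9 in both pups of control dam 3 and Hoxc9 in control male 3, and the red field in control male 1 is Hoxb4.

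The pups of control dam 3 had far fewer transcripts of the posterior genes. Over all 16 members of groups 9 to 13, whether tested or not, the summed FPKM was 0.749 in control male 3 and 1.23 in control female 3, against 7.39 to 13.3 in the other 10 libraries. Over groups 5 to 8 it was 30.5 and 46.0 FPKM, against 74.0 to 122.9 FPKM, and over groups 1 to 4 it was 9.08 and 8.56 FPKM, against 8.96 to 24.5 FPKM. The share of Hox FPKM held by groups 9 to 13 was 1.86% and 2.20%, against 4.77 to 11.3% in the other 10. The gap thus narrowed from the tail end of the code to its head end, where the ranges met. The 39 members together took 1478 and 2622 reads in these pups, against 3836 to 6233 reads in each of the other 10.

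Both pups lay below every other library for 13 of the 24 members that passed the filter on low counts, against 7.42% of all 16102 tested genes. Both lay above every other library for 1 member, Hoxa2, against 9.85% of all tested genes. For no other dam did both pups lie below the other 10 libraries in any of the 24 members, and the only such gene above them was Hoxd8 in control dam 1. The 13 low members were 7 of 8 in cluster B, 3 of 6 in cluster C, 2 of 3 in cluster D and 1 of 7 in cluster A. They were 3 of 8 in groups 1 to 4, 6 of 11 in groups 5 to 8 and 4 of 5 in groups 9 to 13. Dam 3 was singled out after these values were known, so no test was made of it. Of the 15 members that did not pass, only Hoxd3 was below all others in both pups, on 1 and 0 counts.

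Hoxb9, a gene of the rib-bearing levels in the mouse, had the widest gap among members with reads in every library. In CPM it was 16.2, 16.6 and 15.8 in stressed males, 10.1, 18.6 and 1.5 in control males, 14.8, 18.5 and 19.0 in stressed females and 20.4, 14.3 and 1.31 in control females. The counts behind the low values were 23 and 28. The pups of control dam 3 lay 11-fold and 12.5-fold below the mean of the other 10 libraries, and the stressed groups fell within the range of the remaining controls.

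Hoxc9, its paralogue in cluster C, was at 4.68, 4.42 and 6.73 CPM in the stressed males, 6.15, 3.36 and 0 CPM in control males, 6.29, 4.98 and 5.44 CPM in stressed females and 4.73, 3.49 and 0.843 CPM in control females. No read fell on it in control male 3, at least 25.8-fold lower than the mean of the other 10 libraries when 3 counts are allowed for that library, and it was 5.96-fold lower in control female 3 on 18 counts. Hoxc10 had no read in either pup, at least 2.84-fold and 3.95-fold lower by the same limit. Hoxa9 had 0 and 3 counts in these pups, against 0.378 to 1.03 CPM in the other 10 libraries. Hoxd9 was the tested posterior member whose pups did not fall below all others, with 0.585 and 0.703 CPM, against 0.442 to 2.38 CPM.

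In cluster C the gaps were smaller toward the head end. Along it, control male 3 lay 7.10-fold below the mean of the other 10 libraries for Hoxc8, 1.71-fold below for Hoxc6 and 1.24-fold below for Hoxc4, while its Hoxc5 was at 116% of that mean. Control female 3 lay 2.05-fold below for Hoxc8, and its Hoxc6, Hoxc5 and Hoxc4 were at 102%, 98.1% and 92.8%. The littermates differed in how far the gap reached.

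Cluster B was low over its whole length. From Hoxb9 toward the head, control male 3 was at 9.11% of the mean of the other 10 libraries for Hoxb9, 50.5% for Hoxb8, 26.5% for Hoxb7, 30% for Hoxb6, 53.7% for Hoxb5, 54.5% for Hoxb4, 58.6% for Hoxb3 and 32.2% for Hoxb2. Control female 3 was at 7.98% for Hoxb9, 39.7% for Hoxb8, 30.8% for Hoxb7, 34.1% for Hoxb6, 47.6% for Hoxb5, 48.0% for Hoxb4, 72.1% for Hoxb3 and 52.2% for Hoxb2. The order was not strict, since Hoxb8 was less reduced than Hoxb7 and Hoxb6 in both pups. Hoxb2 rests on 4 and 9 counts.

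Hoxb7 illustrates the middle of cluster B. It was at 12.1, 16.8 and 10.8 CPM in the stressed males, 16.4, 20.8 and 4.55 CPM in control males, 20.4, 18.2 and 20.3 CPM in stressed females and 20.4, 15.6 and 5.29 CPM in control females. Its neighbour Hoxb6 was at 9.06, 15.1 and 9.72 CPM in the stressed males, 9.39, 15.7 and 3.84 CPM in control males, 13.6, 15.2 and 14.3 CPM in stressed females and 14.9, 11 and 4.36 CPM in control females. For both genes the low pair came from the same litter, and the males with the largest share of Yam1 reads were the next lowest for Hoxb6.

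Cluster A went another way at its head end. Hoxa2, a hindbrain and pharyngeal arch gene of the mouse embryo, was at 1.5 and 0.984 CPM in control male 3 and control female 3, while the other 10 libraries ran from 0.0989 to 0.889 CPM. Hoxa3 was at 174% and 117% of their mean and Hoxa4 at 163% and 78.1%. Hoxa5 was at 11.2 and 9.93 CPM, inside the range of 7.07 to 16.1 CPM of the other 10. The lowest value of Hoxa2, on 2 counts, was that of control male 2, in which the lists of smooth muscle, enteric neuron and fibroblast genes stood at -0.67, -0.80 and -0.44 on the log2 scale; their part in the Hox values was not tested.

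**Figure D3:**
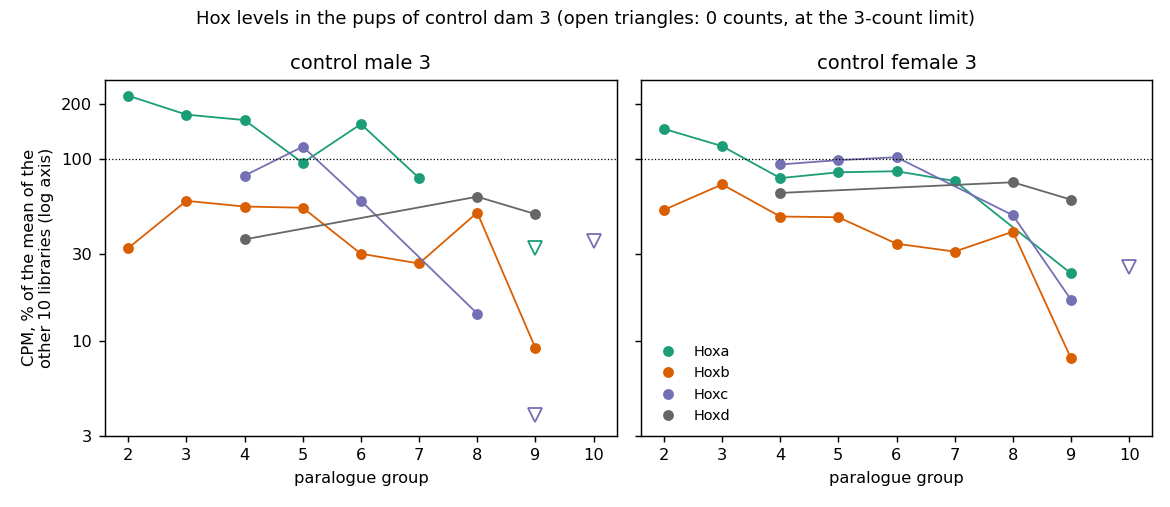
CPM of each tested Hox gene in control male 3 and control female 3 as a percentage of the mean of the other 10 libraries, on a logarithmic axis, by paralogue group and cluster; open triangles mark 0 counts and stand at the value 3 counts would give. Cluster B lies below 100% throughout, and Hoxb9 reaches 9.11% and 7.98%.

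The gene beside Hoxb9 on its tail side moved with it. Gm53, chosen here after its values were seen, is annotated as protein-coding on chromosome 11 from 96251105 to 96264868, between Hoxb13 and Hoxb9. Its CPM was 0.195 in control male 3 and 0.234 in control female 3, with 3.35 to 12.4 in the other 10 libraries. Its lowest value among those 10 was that of control male 1, which also had the lowest Hoxb9 of those 10. The 3 noncoding genes of the clusters with the highest mean were Hotairm1 of cluster A, at 2.41 and 2.39 CPM against 0.635 to 3.43 CPM, Hoxb5os of cluster B, at 0.455 and 0.328 CPM against 0.554 to 1.97 CPM, and the pseudogene Gm11539 of cluster B, at 1.37 and 1.17 CPM against 0.432 to 1.38 CPM. Of these 3, only Hoxb5os lay below the other 10 libraries in both pups.

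Regional markers of the epithelium were read in the same pups. Of 14 tested genes listed as marking the proximal small intestine, 12 lay above every other library in both, against 9.85% of all tested genes. Fabp1 and Gata4, by which these pups were set apart above, are among the 12, so the count is no independent support. The list stood at 2.73 in control male 3 and 1.30 in control female 3 on the log2 scale, against -0.62 to 0.25 in the other 10. The list of 9 tested distal genes stood at -0.80 and -0.018, against -0.58 to 0.27 in the other 10. Of its genes, 2 lay below every other library in both pups, against 7.42% of all tested genes. They were the amino acid transporter Slc6a14 and the hormone gene Pyy. Slc6a14 was at 0.130 and 6.37 CPM, against 58.5 to 108 CPM. Other distal genes, chosen here after their values were seen, were not low in both: the ileal hormone gene Fgf15 was at 24.7 and 185.6 CPM, against 47.0 to 165.5 CPM. Amn was at 290 and 420.4 CPM, against 153 to 401 CPM, and Cubn at 886 and 763 CPM, against 416 to 1281 CPM. The colon list as a whole stood at 0.62 and 0.85. The part of the place of sampling in the Hox values was not tested.

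Lists of the other cell types of the gut wall were read beside the Hox genes. In control male 3 and control female 3 the smooth muscle list stood at -0.35 and -0.30 on the log2 scale, the fibroblast list at -0.19 and -0.07, the enteric neuron list at -0.58 and -0.46 and the enteric glia list at -0.44 and -0.07. No gene of the first 3 lists lay below every other library in both pups, and Sox10 did in the glia list of 6 genes. The mesothelium list stood at 0.02 and 0.22, the endothelium list at 0.34 and 0.07 and the epithelium list at 0.43 and 0.21. B cell genes stood at -2.53 and -0.73, with 5 of 6 below every other library, and macrophage genes at 0.38 and 0.60. Of the 11 genes of exocrine pancreas, 6 had no count in any library and the 4 tested stood at 1.05 and 1.30. The part of these cell types in the Hox values was not tested.

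**Figure D4:**
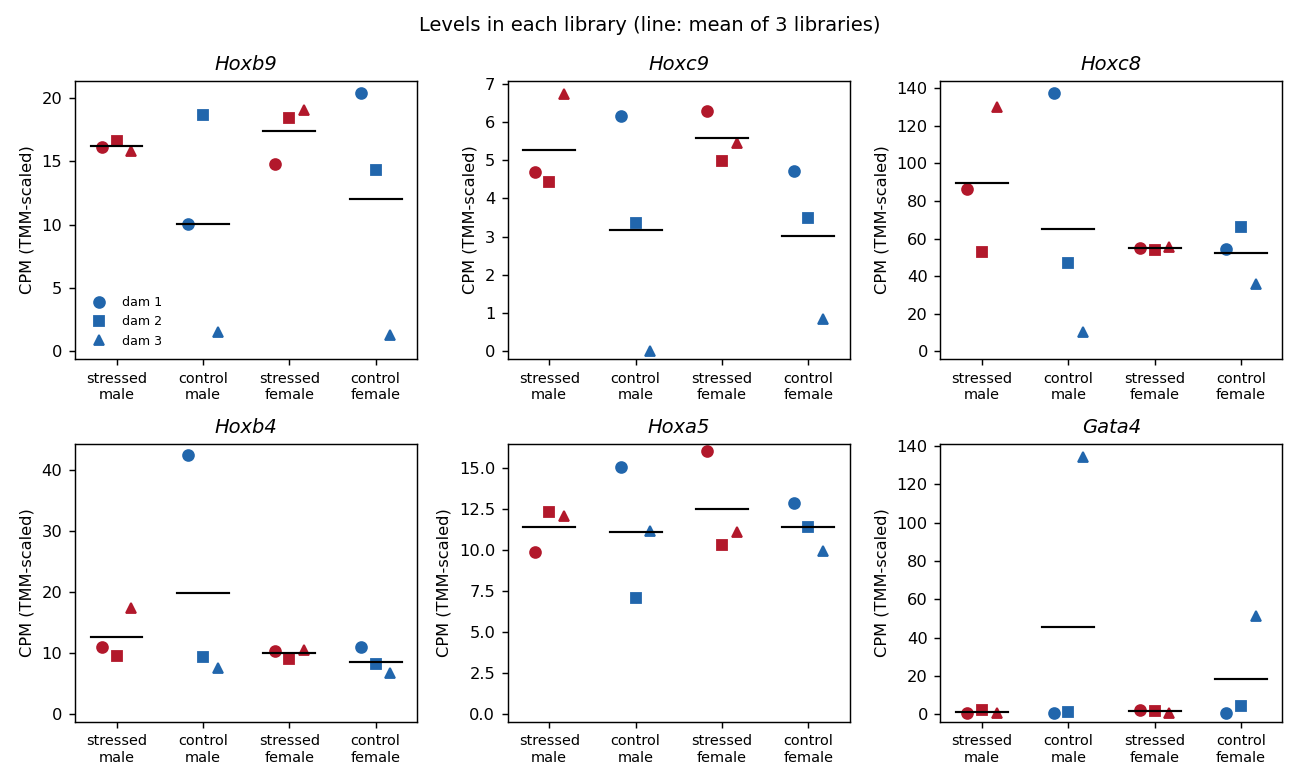
CPM in each library for Hoxb9, Hoxc9, Hoxc8, Hoxb4, Hoxa5 and the upper-intestinal factor Gata4; symbols give the dam number, lines the mean of 3 libraries, stressed groups stand left of control groups. Hoxb9 is at 1.5 and 1.31 CPM in the pups of control dam 3, where Gata4 is at 134.6 and 51.0 CPM, and Hoxb4 reaches 42.4 CPM in control male 1.

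Another set of Hox genes was high in the 3 male libraries rich in Yam1 reads. These lay above all other 9 libraries for 2 of the 24 tested members, Hoxc8 and Hoxa7, against 10.3% of all tested genes, so the share among Hox genes was not above that of other genes. Hoxc8 was at 86.4, 53.0 and 130 CPM in the stressed males, 137.5, 47.2 and 10.4 CPM in control males, 55.1, 53.8 and 55.4 CPM in stressed females and 54.7, 66.2 and 36.1 CPM in control females. Hoxa7 was at 15.4, 9.18 and 17.5 CPM in the stressed males, 22.4, 8.36 and 9.82 CPM in control males, 10.3, 10.4 and 11 CPM in stressed females and 9.38, 11.8 and 9.46 CPM in control females. Both genes were nearly level among the stressed females and spread widely among the males.

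Hoxb4 stood out in control male 1. It was at 11, 9.48 and 17.3 CPM in the stressed males, 42.4, 9.40 and 7.55 CPM in control males, 10.2, 9.03 and 10.5 CPM in stressed females and 11, 8.12 and 6.65 CPM in control females. The next highest library was stressed male 3, which had the most Yam1 reads of all. Its neighbours in cluster B differed: in control male 1 Hoxb5, at 15.3 CPM, was also at its highest of the 12 libraries, by 0.51 above its median on the log2 scale against 2.10 for Hoxb4, and Hoxb3 was 0.10 below its median. In this library the smooth muscle list stood at 0.72 and the enteric neuron list at 0.60, the highest of the 12 for both; their part in the Hox values was not tested. Its mesothelium list stood at -2.42, that of stressed male 3 at -2.32 and that of control male 2 at -2.89.

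Restraint of the dam was first compared with no restraint in male pups. No Hox gene passed an adjusted p of 0.05 by edgeR's quasi-likelihood test, and none of the 24 tested members had an unadjusted p below 0.05. Over all 16102 genes 0% passed the adjusted threshold and 6.38%, 1028 genes, had an unadjusted p below 0.05. DESeq2 and limma-voom also called no gene, with 1136 and 868 genes, and no Hox gene, below 0.05 unadjusted. Of the 24 members 10 had a positive and 14 a negative log2 fold change, with a median of -0.03, against 0.01 over all genes; without both pups of control dam 3 the median was -0.15, without control male 1 it was 0.17, and without the 3 males rich in Yam1 reads it was 0.36 over 28 tested members. No member had groups that did not overlap, against 5.67% of all genes.

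The 3 members with the smallest p in males were Hoxa3, Hoxb4 and Hoxa6. Hoxa3, a gene of the pharyngeal arches, had a mean of 1.90 CPM (SD 0.612) over the 3 stressed males and 2.63 CPM (SD 1.12) over the 3 control males, and its log2 fold change was -0.47 ± 0.37 (SE; edgeR, adjusted p = 0.797). Its values were 1.26, 1.96 and 2.48 CPM in the stressed males, against 2.43, 1.63 and 3.84 CPM in control males, which overlap, and without both pups of control dam 3 the log2 fold change was -0.10. Hoxb4 averaged 12.6 ± 4.14 CPM under stress and 19.8 ± 19.6 CPM in control males (log2 fold change -0.66 ± 0.53; edgeR, adjusted p = 0.799), which was -1.05 without control male 3 and 0.56 without control male 1. Outside the 3, without control male 1 the unadjusted p was below 0.05 for Hoxc8 (1.63, edgeR adjusted p 0.335) and Hoxa7 (0.62, adjusted p 0.336). For fits without 1 library, here and below, the share of all genes below an unadjusted 0.05 is not given. Without the 3 Yam1-rich males the log2 fold change of Hoxc6 was 0.74. Hoxa6 was at 0.755, 0.393 and 0.635 CPM in the stressed males, against 0.756, 0.593 and 1.11 CPM in control males (log2 fold change -0.45 ± 0.45; edgeR, adjusted p = 0.846), which was -0.18 without control male 3 and -1.08 without the 3 Yam1-rich males.

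In females, too, no Hox gene was called by edgeR or DESeq2 and none of the 24 was below an unadjusted p of 0.05. Over all genes 0% passed the adjusted threshold, and 0.298%, 48 genes, had an unadjusted p below 0.05 by edgeR, 49 by DESeq2 and 53 by limma-voom. The log2 fold change was positive for 18 members and negative for 6, with a median of 0.16, against -0.0046 over all genes; without both pups of control dam 3 it was positive for 14 of 24, with a median of 0.021. The groups did not overlap for 1 member, Hoxc9, with 6.29, 4.98 and 5.44 CPM in stressed females and 4.73, 3.49 and 0.843 CPM in control females, against 5.56% of all genes. Its log2 fold change was 0.88 ± 0.84, and 0.43 ± 0.30 without both pups of control dam 3.

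The members with the smallest p in females were Hoxb2, Hoxa6 and Hoxd9. Hoxb2, a gene of the hindbrain in the mouse embryo, was at 1.13, 0.705 and 1.15 CPM in stressed females and 0.864, 0.566 and 0.422 CPM in control females (log2 fold change 0.67 ± 0.45; edgeR, adjusted p = 1). Hoxa6 was at 0.521, 0.617 and 0.784 CPM in stressed females and 1.48, 0.613 and 0.609 CPM in control females (log2 fold change -0.50 ± 0.42; edgeR, adjusted p = 1), which was 0.034 without control female 1. Hoxd9 was at 0.912, 1.01 and 1.43 CPM in stressed females and 2.38, 1.65 and 0.703 CPM in control females (log2 fold change -0.50 ± 0.45; edgeR, adjusted p = 1), which was -0.10 without control female 1 and -0.85 without control female 3. All 3 genes are near 1 CPM, and the groups overlapped for each.

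**Figure D5:**
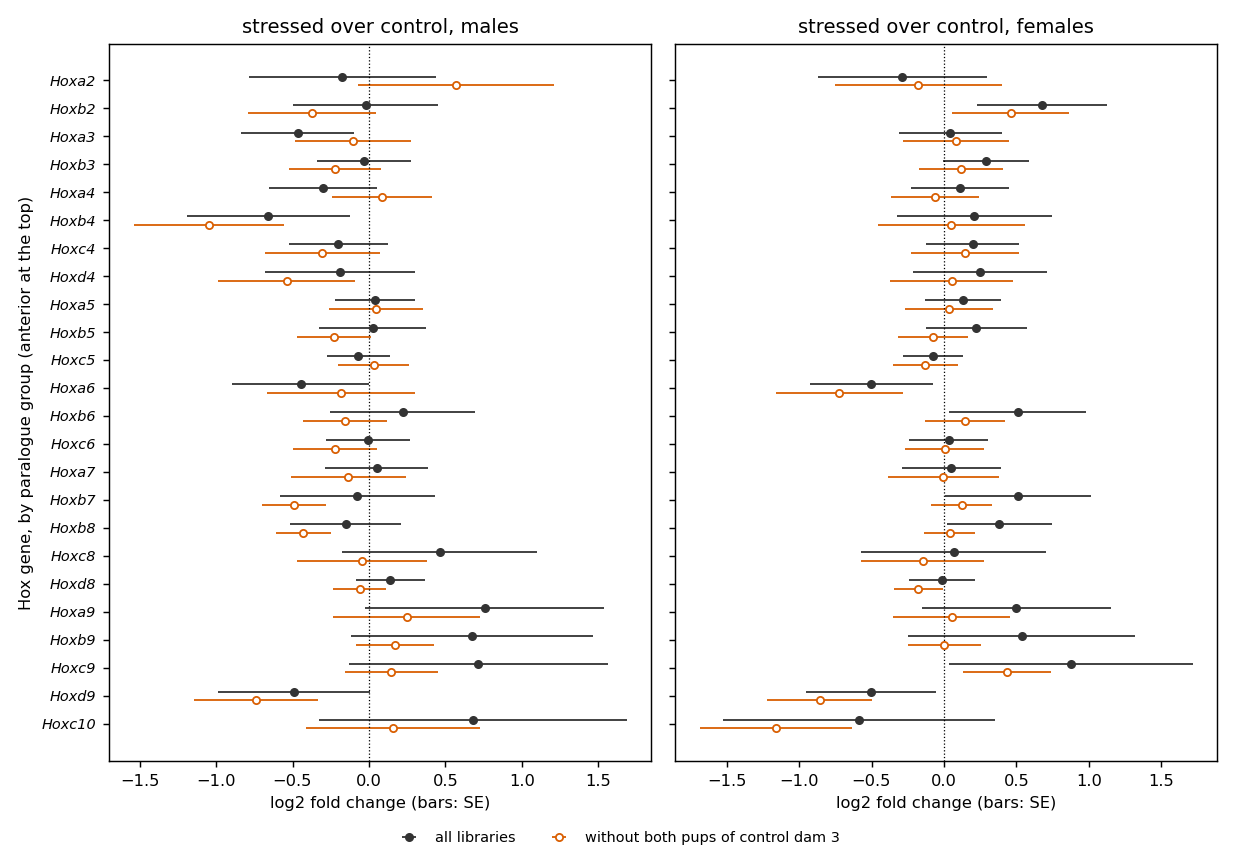
Log2 fold change of stressed over control pups for the 24 tested Hox genes in males and in females, with standard errors; filled symbols use all libraries and open symbols leave out both pups of control dam 3. Hoxb9 is at 0.67 and 0.54 with all libraries and at 0.17 and 0.00 without them.

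The stress contrasts of the posterior genes depended on control dam 3. With all libraries the 5 tested members of groups 9 to 13 had a median log2 fold change of 0.68 in males and 0.50 in females; without both pups of control dam 3 it was 0.16 and 0.0028. For groups 5 to 8 the medians were 0.03 in males and 0.07 in females, and -0.16 and -0.0038 without these pups. For groups 1 to 4 they were -0.20 and 0.20, and -0.26 and 0.07 without them. Hoxb9 averaged 16.2 ± 0.390 CPM under stress and 10.1 ± 8.57 CPM in control males, a log2 fold change of 0.67 ± 0.79, and 0.17 ± 0.26 without the pups of control dam 3. In females it averaged 17.4 ± 2.30 CPM in stressed and 12 ± 9.75 CPM in control pups, a log2 fold change of 0.54 ± 0.79, and 0.00 ± 0.25 without them. No Hox gene passed the adjusted threshold without these pups either. The unadjusted p by edgeR was then below 0.05 for Hoxb7 (-0.49 ± 0.21) and Hoxb8 (-0.43 ± 0.18) in males and for Hoxd9 (-0.86 ± 0.36) in females. Of all 16275 genes in that fit, 948 were below 0.05 in males and 52 in females.

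With the dam as the replicate, littermates summed, 25 members were tested. None was called by edgeR or DESeq2 and none had an unadjusted p below 0.05, while over all 16749 genes 0% were called and 1.36%, 228 genes, had an unadjusted p below 0.05, 229 by DESeq2 and 202 by limma-voom. The log2 fold change was positive for 17 and negative for 8, with a median of 0.06, against 0.0047 over all genes. No member had groups of dams that did not overlap, against 5.68% of all genes. Without control dam 3 the median was -0.07, with 7 of 27 tested members positive, and without control dam 1 it was 0.40. Without control dam 3 only Hoxd9 among the members had an unadjusted p below 0.05 by edgeR, against 181 of all 17034 genes.

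The smallest p over dams were those of Hoxa6, Hoxd9 and Hoxc9. Hoxa6 averaged 0.621 ± 0.106 CPM over stressed dams and 0.863 ± 0.284 CPM over control dams (log2 fold change -0.49 ± 0.31; edgeR, adjusted p = 1.00), and -0.21 without control dam 1. Hoxd9 averaged 0.930 ± 0.283 CPM over stressed dams and 1.31 ± 0.589 CPM over control dams (log2 fold change -0.52 ± 0.40; edgeR, adjusted p = 1.00), -0.83 ± 0.29 without control dam 3 and -0.23 without control dam 1. Hoxc9 averaged 5.42 ± 0.646 CPM over stressed dams and 3.09 ± 2.45 CPM over control dams (log2 fold change 0.78 ± 0.64; edgeR, adjusted p = 1.00), 0.29 ± 0.21 without control dam 3 and 1.43 without control dam 1. Among the stressed dams Hoxc9 kept within 4.71 to 5.98 CPM, and control dam 3, at 0.490 CPM, widened the control range.

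The authors' deposited table of comparisons gave the same count of calls. In the authors' deposited table no Hox gene had an adjusted p below 0.05 among 28 with a value in males, 33 in females and 32 over all pups. The smallest unadjusted p in the authors' deposited table was that of Hoxc9 in females, 0.0531, with a log2 fold change of 0.20. In males it was that of Hoxb4 in the authors' deposited table, 0.254, with a log2 fold change of -0.28.

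The change in males minus the change in females was tested in the same fit. No Hox gene was called by edgeR or DESeq2 and none had an unadjusted p below 0.05; over all genes 0% were called and 2.15%, 346 genes, had an unadjusted p below 0.05, 395 by DESeq2 and 286 by limma-voom. The difference was positive for 9 members and negative for 15, with a median of -0.13, against -0.00025 over all genes. The smallest p were those of Hoxb4 (-0.87 ± 0.75), Hoxb2 (-0.70 ± 0.66) and Hoxb8 (-0.54 ± 0.51), each with an edgeR adjusted p of 0.999. Without the 3 males rich in Yam1 reads these differences were -0.049, -0.032 and -0.098, and the median was 0.095, with 18 of 28 tested members positive. The median was also positive without control male 1 (0.088) or control female 3 (0.025), and it was -0.52 without control female 1 and -0.14 without both pups of control dam 3. The difference for Hoxb8 was -0.20 without control female 3, that for Hoxb4 was 0.35 without control male 1, and without control male 1 Hoxc8 had an unadjusted p below 0.05 (1.56, edgeR adjusted p 0.795). Hoxb8 was at 8.20, 10.3 and 8.39 CPM in the stressed males, 13, 11.1 and 5.72 CPM in control males, 12.9, 11.6 and 13.3 CPM in stressed females and 13.7, 10.8 and 4.50 CPM in control females. In each sex the pup of control dam 3 was the lowest for Hoxb8.

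Males were compared with females over all 12 libraries. No Hox gene was called by edgeR, by which 0.0497% of all genes were, 8 in number; none of the 24 members had an unadjusted p below 0.05 with all libraries, against 12% of all genes. DESeq2 called 18 genes and no Hox gene. By DESeq2 1 Hox gene, Hoxb4, had an unadjusted p below 0.05, as did 2240 of all 16064 genes. The log2 fold change was negative, lower in males, for 21 of 24 members, with a median of -0.15, against 50.6% negative and a median of -0.0037 over all genes. Without both pups of control dam 3 the unadjusted p was below 0.05 for Hoxa9 (-0.86), Hoxb4 (0.89) and Hoxd9 (-0.74), each with an edgeR adjusted p of 0.653. In that fit 991 of all 16275 genes were below 0.05. With the dam as a block the unadjusted p was below 0.05 for Hoxa9 (-0.91) and Hoxd9 (-0.67), each with an edgeR adjusted p of 0.459. The share of all genes below an unadjusted 0.05 in that fit is not given, so these 2 members cannot be set against it. With 1 library left out, which was stressed male 2, stressed male 3, control male 2, control male 3 or control female 3, between 1 and 3 members had an unadjusted p below 0.05, with edgeR adjusted p of 0.0837 to 0.759. The median was -0.19 without the pups of control dam 3, -0.27 without control female 3, -0.078 without control male 3 and -0.03 without control female 1. No member had sexes that did not overlap, against 0.255% of all genes.

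Hoxd9 averaged 0.835 ± 0.323 CPM in males and 1.35 ± 0.615 CPM in females (SD, n = 6 each), and the log2 fold change was -0.69 ± 0.33 (edgeR, adjusted p = 0.411). Hoxb4 averaged 16.2 ± 13.3 CPM in males and 9.26 ± 1.65 CPM in females (log2 fold change 0.77 ± 0.38; edgeR, adjusted p = 0.413), and -0.04 without the 3 male libraries rich in Yam1 reads. Hoxb3 was between 1.96 and 3.51 CPM in males, with a median of 3.04, and between 2.48 and 4.98 CPM in females, with a median of 3.59 (log2 fold change -0.38 ± 0.21; edgeR, adjusted p = 0.437). The sexes overlapped for each of these genes. Without those 3 males the median over the tested Hox genes was -0.21.

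The partners of HOX proteins were read as well. All 9 listed cofactors, homeodomain proteins that bind DNA together with HOX proteins, were tested and none was called in any comparison. Their median log2 fold change was 0.04 for stressed against control males, 0.05 for females and 0.06 for dams. Meis1 ran from 18.2 to 35.2 CPM over the libraries and Meis2 from 18.3 to 35.5 CPM. In the pups of control dam 3 the list stood at -0.31 and -0.25 on the log2 scale, and Meis3 lay below every other library in both, at 8.13 and 13.4 CPM against 13.8 to 19.7 CPM.

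Of the 25 listed upstream regulators, which include CDX and retinoic acid factors and the Polycomb and Trithorax proteins that hold Hox genes off or on, 23 were tested. None was called in a comparison with stress, and their median log2 fold change was -0.01 in males, 0.00 in females and -0.02 over dams. Cdx1 was between 120 and 147 CPM and Cdx2 between 191 and 253 CPM in all 12 libraries, with 145 and 134 CPM and with 224 and 208 CPM in the pups of control dam 3. The levels of both factors there lay within the range of the other 10 libraries, and their part in the Hox values was not tested. Of the 23 tested regulators, 2 lay below every other library in both of these pups, Bmi1 and Rnf2, against 7.42% of all tested genes. Only 1, Ezh2, lay above, against 9.85% of all tested genes. These are Polycomb genes, and the Polycomb genes Ezh1, Eed, Suz12 and Cbx2 of the same list did neither. Cdx4 had no count in any library. Of the listed neighbours of the clusters and ParaHox genes, 8 of 16 were tested and none was called, and the pancreatic ParaHox gene Pdx1 was at most 0.195 CPM.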

How the data were processed

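Reads per gene had been counted by the authors: the deposited raw counts cover 35275 genes in 12 libraries, with totals of 16423523 to 22975526. The authors also deposited FPKM, and every FPKM value equalled the count over gene length and library total within a tolerance of 1e-06. Another table of theirs gives, per the file headers, a log2 fold change with a p-value before and after adjustment. Tools and builds named in the submitters' processing notes are HTSeq 0.6.1, STAR 2.5, TopHat, edgeR 3.16.5, DESeq2, mm10 and GRCm38, with no role or order. Limits for 0 counts cover counting error only.

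All comparisons were fitted in edgeR 4.0.16 (R 4.3.3) with TMM scaling and the quasi-likelihood test, over the genes that filterByExpr kept, 16102 in the fit of 4 groups and 16749 after summing littermates by dam. Adjustment followed Benjamini and Hochberg over all genes, and the threshold was 0.05. The scripts were tested on simulated data. Of 39 members 24 passed the filter of the 4-group fit and 15 did not, and 22 had a count in every library. A list's value on the log2 scale is the median, over its tested genes, of log2 CPM (prior count 2) minus the gene's median over the 12 libraries. Other settings tried were size factors by median ratios, DESeq2 1.42.0, voom in limma 3.58.1, other filters, limma on log2(FPKM + 1) and log2(FPKM + 0.1), 1 sex alone, blocks, and left-out libraries. The fit without the 3 males richest in Yam1 reads was chosen after seeing the data; it leaves 1 stressed male, which is assumed to vary like the other groups.

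Values in every library are given for the 2 members of highest mean FPKM in each cluster, the 6 of largest SD of log2 CPM among those with a mean of at least 1 CPM, and the 3 of smallest p in each comparison; others are given by range. The members, lists and alternatives were chosen with earlier results of these data known. Males and females pair by dam, from the labels; stressed and control dams share only numbers. Deviations of littermates correlated across genes at -0.362 to 0.545, so this pairing rests on the labels alone. With 3 dams a group, p-values measure the spread between these dams and pups. A few genes covered by these choices are not reported here.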

Additional observations from a re-analysis of the deposited data

Results flagged for a closer look

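Within the 6 males or the 6 females, a single library stood apart from the rest when its gap to the nearest other, as a share of the whole range, exceeded Dixon's critical value, which chance gives in about 1 of 20 sets. Of 48 sets, 10 did so, and in each the library was a pup of control dam 3 and the lowest. The sets are genes read in the same libraries and are not independent. Dam 3 was also singled out by these values, so the count cannot be set against that rate. In control male 3, Hoxb9 was at 1.5 CPM, against 10.1 to 18.6 CPM in the other males, and Hoxd8 was at 6.05 CPM, against 9.05 to 10.8 CPM. Hoxa9 and Hoxc9 were at 0 CPM there, against 0.378 to 0.54 CPM and 3.36 to 6.73 CPM.

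In control female 3, Hoxb9 was at 1.31 CPM, against 14.3 to 20.4 CPM in the other females, and Hoxc9 was at 0.843 CPM, against 3.49 to 6.29 CPM. Hoxb6 was at 4.36 CPM, against 11 to 15.2 CPM, Hoxb7 at 5.29 CPM, against 15.6 to 20.4 CPM, and Hoxb8 at 4.50 CPM, against 10.8 to 13.7 CPM. Hoxc8 was at 36.1 CPM, against 53.8 to 66.2 CPM. Only Hoxb9 and Hoxc9 stood apart in both sexes.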

How the results depend on the processing

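No setting called a Hox gene in any comparison. Values of single genes under other settings were tallied only for the 3 members of smallest p in each comparison. Of these values 305 kept their sign and side of the threshold while 5 changed sign. Hoxb4 did so in males without control male 1 (0.56) and without the 3 males richest in Yam1 reads (0.16), in the difference between the sexes' changes without control male 1 (0.35), and between males and females without those 3 males (-0.042); Hoxa6 did so in females without control female 1 (0.034). Leaving out 1 library at a time gave Hoxb4 -1.05 to 0.56 in males and -1.25 to 0.35 in the difference, and Hoxa6 -0.72 to 0.034 in females. The median over tested Hox genes was 0.36 in males without the Yam1-rich males. Leaving out 1 library or dam gave a median of -0.52 to 0.088 for the difference and -0.070 to 0.40 over dams. Some members outside the tally also changed sign. Without both pups of control dam 3, the log2 fold change in males went from 0.46 to -0.04 for Hoxc8. It went from -0.17 to 0.57 for Hoxa2.

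Over all genes, leaving out 1 library called 0 to 1 genes in males and 8 to 1384 between the sexes, 1384 without stressed male 2; DESeq2 called 18 between the sexes, and 5 were called without the Yam1-rich males. The deviation of the tested members of groups 9 to 13 in control male 3, -2.53, was -4.31 with a prior count of 0.5, -3.33 over members of at least 1 CPM, and -0.32 on log2(FPKM + 1), as it was in control female 3; the larger constant shrinks low values by construction. In control male 3 the value of -2.53 was that of Hoxc10, which had 0 counts there, so it depends on the prior count by construction. For the rest the cause was not tested. With the dam as a replicate block 6 genes were called between the sexes, against 8 without it, and the Hox median was -0.18; with the dam number as a block it was 0.02 in males, 0.14 in females and 0.10 over dams, and no Hox call changed. Depth limits the members of groups 10 to 13, where 0 counts allow up to 0.195 CPM.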
